A study of Mus with 2 samples.

Results

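The genes described here build and fold the proteins that epithelial cells of the mouse ileum send to their surface or into the gut lumen. They were picked by gene symbol, with earlier results of these data known. A gene counted if its symbol matched 1 of the families Pdia, Sec61 to Sec63, Ssr, Spcs, Srp, Rpn1 and Rpn2, Sec11 to Sec13 and Sec22 to Sec24, or was 1 of 18 genes named one by one, such as Hspa5, Calr, Xbp1 and Ern2. Of the 8990 genes in any of the deposited cell type sheets, 56 were members, 38 by family pattern and 18 by name. The sheet of goblet cells listed 53 members, that of tuft cells 47, that of enteroendocrine cells 46, that of stem cells 44 and that of enterocytes 39, and 36 members were in all 5 sheets. A gene was listed where at least 10% of the cells of 1 group had its transcript, so a missing member fell under that share in both groups.

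Epithelial cells of the distal ileum were sorted by flow cytometry and profiled one by one in droplets (inDrops). The nociceptor-ablated mice carried Nav1.8Cre+/-DTA+/-, in which diphtheria toxin A is made under the Nav1.8 Cre driver and removes Nav1.8-lineage sensory neurons. Their littermate controls carried Nav1.8Cre-/-DTA+/-, so the toxin allele was present in both genotypes and both were untreated. All mice were males of 8 weeks, per the deposited library sheet, and each genotype was 1 pool of 3 mice, so no value below has a replicate and no difference was tested. The nociceptor-ablated pool was planned as 8500 cells in 3 sub-libraries and the control pool as 10000 cells in 4. All 5 cell type sheets come from the same pair of pools, so their values are not independent. The sheets compare a group 1 with a group 2 without saying which genotype is which, so no direction of nociceptor loss is given. Fold changes are group 1 over group 2 on a log2 scale, in the authors' deposited table. Each sub-library made up 12.86% of the sequencing pool, also the one planned at 3500 cells where the others had 2500. The nociceptor-ablated pool had 38.58% of the sequencing pool and the control pool 51.44%. Cell numbers per cell type and the depth reached per cell are not given in the sources used here. The part of depth in the group differences was not tested. Tuft cells (19 detection shares in group 1 and 8 in group 2) and enteroendocrine cells (35 and 41) had the fewest distinct values, beside 183 or more in each other sheet. The smallest share above 0 was 5.6% in group 1 and 14.3% in group 2 of tuft cells. In enteroendocrine cells it was 2.9% and 2.5%. Values of these 2 cell types, above all of tuft cells, thus rest on few cells.

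Proteins bound for secretion are recognised by the signal recognition particle while they are being made, threaded through the Sec61 channel into the endoplasmic reticulum, trimmed by signal peptidase and glycosylated by the oligosaccharyltransferase. Chaperones and disulfide isomerases fold them, and COPII-coated vesicles carry them towards the Golgi. When folding lags, the unfolded protein response adjusts this machinery through the sensors IRE1, PERK and ATF6. Goblet cells, which make large disulfide-linked mucins, rely heavily on it and have their own IRE1 paralogue, encoded by Ern2.

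The machinery was detected most often in goblet cells. Among the 36 members in all 5 sheets, the median share of goblet cells with the transcript was 49.8% in group 1 and 56.2% in group 2, whereas the 2478 genes in all sheets had medians of 24.6% and 27.9%. In stem cells the members' medians were 43.9% in group 1 and 54.3% in group 2, beside 29% and 35.4% over the 2478 genes. Enterocytes (22% in group 1 and 27.7% in group 2), enteroendocrine cells (23.5% and 30.0%) and tuft cells (22.2% and 28.6%) showed the members less often. Over the 2478 genes the medians were 19.8% and 22.15% in enterocytes, 20.6% and 22.5% in enteroendocrine cells, and 16.7% and 28.6% in tuft cells. Members and all genes were thus level in group 2 of tuft cells. Goblet cells had the single highest share for 25 of the 36 members in group 1 and for 16 in group 2, where 18.5% and 12.6% of the 2478 genes had theirs. Stem cells, which had the highest share for 46.1% and 47.7% of the 2478 genes, had it for 8 and 13 members. Depth per cell type is not given, so shares of different cell types are not on one depth.

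**Figure D1:**
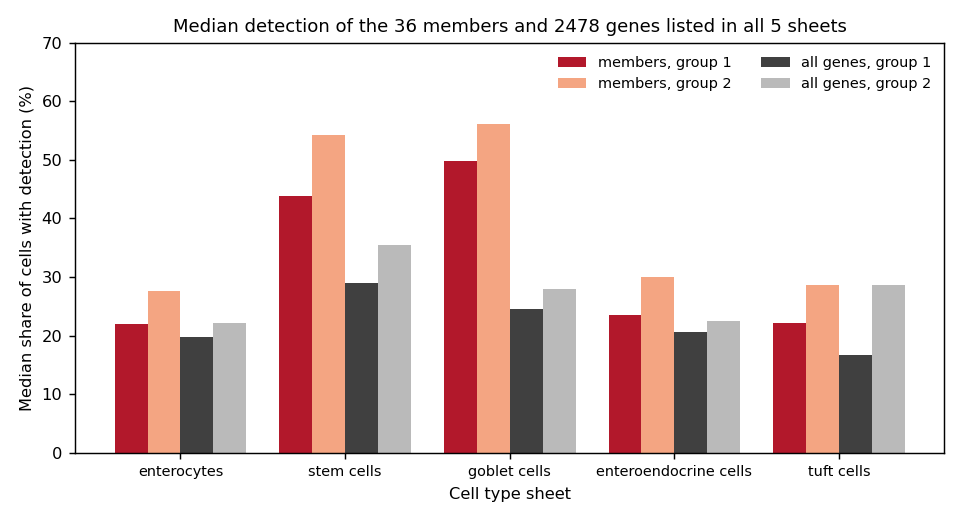
Median share of cells with a transcript detected (percent) in each cell type sheet, for the 36 members and the 2478 genes listed in all 5 sheets, in group 1 and group 2. Goblet cells (49.8% and 56.2%) and stem cells (43.9% and 54.3%) have the highest bars for the members.

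The table of cluster markers describes cells of the same 2 pools by cluster, so it gives no separate support. It covered 8 clusters, numbered 0 to 7, and listed genes at a log2 fold change of at least 0.25 that were seen in at least 25% of the cluster's cells. Of the 56 members 32 (57.1%) were listed for some cluster, beside 18.5% of all 8990 genes. Cluster 4 listed 29 members (51.8% of them), beside 3.14% of all genes, and they made up 10.3% of its 282 markers. It is goblet-like: Tff3, Zg16, Spink4, Fcgbp and Agr2 lead it and all 10 goblet markers are in it, with 3 of 6 Paneth markers and 1 of 8 enteroendocrine markers. Cluster 2 listed 11 members, beside 8.46% of all genes. Its leading genes were Ptma, Olfm4 and ribosomal protein genes, and with 1 of 5 stem markers it stays unnamed. Canx was the member listed for cluster 0 (1.41% of all genes), Sec61b the one for cluster 6 (3.46% of all genes, with all 8 enteroendocrine markers) and Sec11c the one for cluster 7 (2.39% of all genes, with all 7 tuft markers). Clusters 1, 3 and 5, which listed 2.67%, 1% and 0.768% of all genes, held no member.

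Ern2 and Pdia5 were the members nearest to being specific to the goblet-like cluster. In the authors' deposited table, Ern2 (chromosome 7, 122169893 to 122186239, mm10, protein-coding) was detected in 46.7% of cells inside cluster 4 and in 0.4% outside it, at a log2 fold change of 0.69. Pdia5 (chromosome 16, 35397308 to 35490919), a disulfide isomerase, was detected in 53.7% inside and 4.8% outside, at 1.09, the highest of the 29 members in the authors' deposited table. Muc2, the main secreted mucin, was at 96.7% inside and 23.2% outside in the authors' deposited table. Other members were common outside as well. Hspa5 was detected in 79.8% and 54.4%, and Calr in 89.2% and 75.2%, inside and outside cluster 4 in the authors' deposited table. The remaining members of cluster 4 ran from 0.26 for Dnajc3, a cochaperone, to 0.93 for Manf, a secreted stress-responsive protein, in the authors' deposited table.

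**Figure D2:**
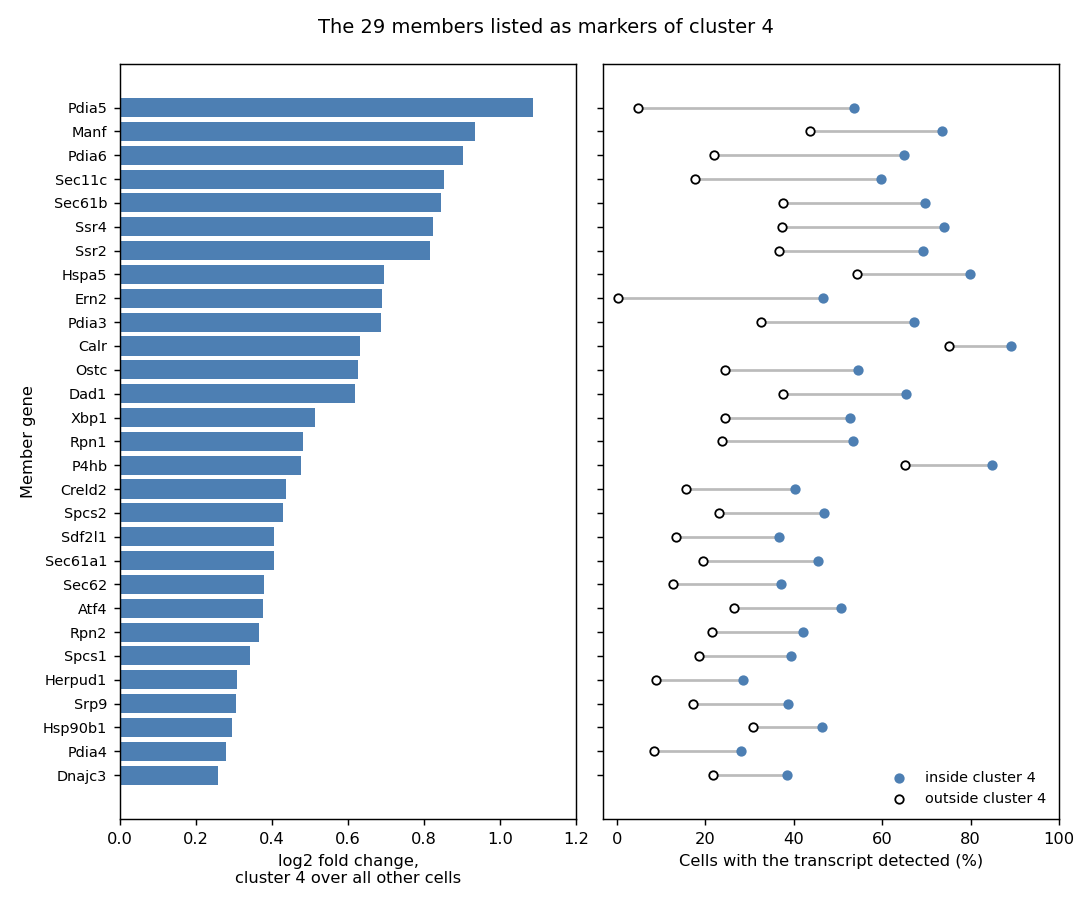
Left, log2 fold change of the 29 members that mark cluster 4, cluster over all other cells, and right, the share of cells (percent) with the transcript inside (filled) and outside (open) the cluster. Pdia5 (1.09) is highest, and Ern2 is the member that falls to 0.4% outside.

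Between the 2 groups, members lay on the lower side of group 1 in goblet cells, stem cells and enterocytes, by small amounts. In goblet cells 44 of 53 members were below the median of all genes (49.9% of all genes were), and their median log2 fold change was -0.13 against -0.04 for all genes. In stem cells 34 of 44 were below it (50% of all genes), with a median of -0.15 against -0.07. In enterocytes 30 of 39 were (50% of all genes), with -0.07 against -0.03. Enteroendocrine cells (25 of 46 members, 49.9% of all genes, medians -0.07 and -0.05) were close to the share of all genes. In tuft cells 27 of 47 members were below (48.4% of all genes), with medians of -0.16 and -0.11. The quartiles of tuft members were -0.46 and 0.01, beside -0.21 and 0.10 for all genes, on few cells. Some markers of cell types differed more between the groups than any member of the same sheet. In goblet cells none of the 8 listed enterocyte markers lay below the sheet's median, with a list median of 0.35 and a summed detection of 506.2 percentage points in group 1 and 488.1 in group 2. The authors' deposited table had Apoa1 at 1.29 and Fabp6 at 0.79 there. Enterocyte markers also lay high in enterocytes (1 of 8 below, median 0.15), stem cells (1 of 7, 0.13) and tuft cells (1 of 9, 0.72). In enteroendocrine cells 7 of 7 were below, with a median of -0.36. The 6 Paneth markers in goblet cells had a median of 0.36, with 1 of 6 below and a summed detection of 196.3 and 196.6 percentage points. In stem cells 4 of 5 stem markers were below the median of all genes, with a summed detection of 101.8 percentage points in group 1 and 136 in group 2, and Olfm4 was lowest at -0.42 in the authors' deposited table. The part of these differences in the members' values was not tested.

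Members past an absolute log2 fold change of 0.25 were nearly all lower in group 1. Tuft cells had 20 of them (42.6% of members, beside 22.4% of all genes), stem cells 7 (15.9%, beside 4.39%) and goblet cells 6 (11.3%, beside 2.76%). In stem and goblet cells all of these were among the often detected genes: in the highest of 4 detection classes they were 7 of 27 members, beside 16.7% of all genes in that class, in stem cells, and 6 of 33, beside 9.79%, in goblet cells. In tuft cells they were 16 of 27 members in the highest class, beside 45.3% of all genes in it. In the next class below they were 3 of 12 tuft members, beside 31.8%. Measured from the median of all genes, 2 of 44 members in stem cells and 2 of 53 in goblet cells were lower by 0.25. Between 1% and 2% of all genes were so in either sheet. Enteroendocrine cells had 2 (4.35%, beside 6.47%) and enterocytes 1 (2.56%, beside 1.55%). On the higher side tuft cells had 4 (8.51%, beside 6.59% of all genes). No member was that much higher in goblet cells (0.617% of all genes), stem cells (0.0185%), enterocytes (0.204%) or enteroendocrine cells (2.23%). Below 0 lay 48 of 53 members in goblet cells (72.7% of all genes), 42 of 44 in stem cells (91.8%), 38 of 39 in enterocytes (78.6%), 32 of 46 enteroendocrine values (64.6%) and 35 of 47 tuft values (68.7%).

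Genes detected more often had lower fold changes in goblet cells, stem cells and enterocytes, and members were detected more often than other genes. The log2 values carry an offset, which holds rarely detected genes near 0, and its part in the members' lower values was not tested. All genes were therefore put into 4 classes by detection. In the highest class the members were mostly below the class's own median in goblet cells (28 of 33, medians -0.17 and -0.10 over all 1134 genes) and enterocytes (12 of 13, -0.14 and -0.07 over 857 genes). In stem cells 19 of 27 were (-0.21 and -0.15 over 1351 genes). The other classes were less one-sided. Below their class median, lowest class first, were 1 of 7, 6 of 7 and 11 of 12 members in enterocytes, 1 of 2, 5 of 6 and 5 of 9 in stem cells, and 2 of 4, 2 of 4 and 8 of 12 in goblet cells. Set against the median of genes with a share of 70% or more in both groups, 62.3% of members were below in goblet cells, 53.8% in enterocytes and 34.1% in stem cells. In stem cells, therefore, the direction depends on which genes set the zero, and in enterocytes the split became nearly even. The share also moved in tuft cells, to 36.2%, and in enteroendocrine cells, to 76.1%. These reference genes numbered 145 in goblet cells, 105 in enterocytes and 262 in stem cells. Detection itself was lower in group 1 for 44 of 53 members in goblet cells (71.4% of all genes), 40 of 44 in stem cells (91.8%), 35 of 39 in enterocytes (72.3%), 33 of 47 tuft cell values (68.6%) and 31 of 46 enteroendocrine values (67.4%).

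**Figure D3:**
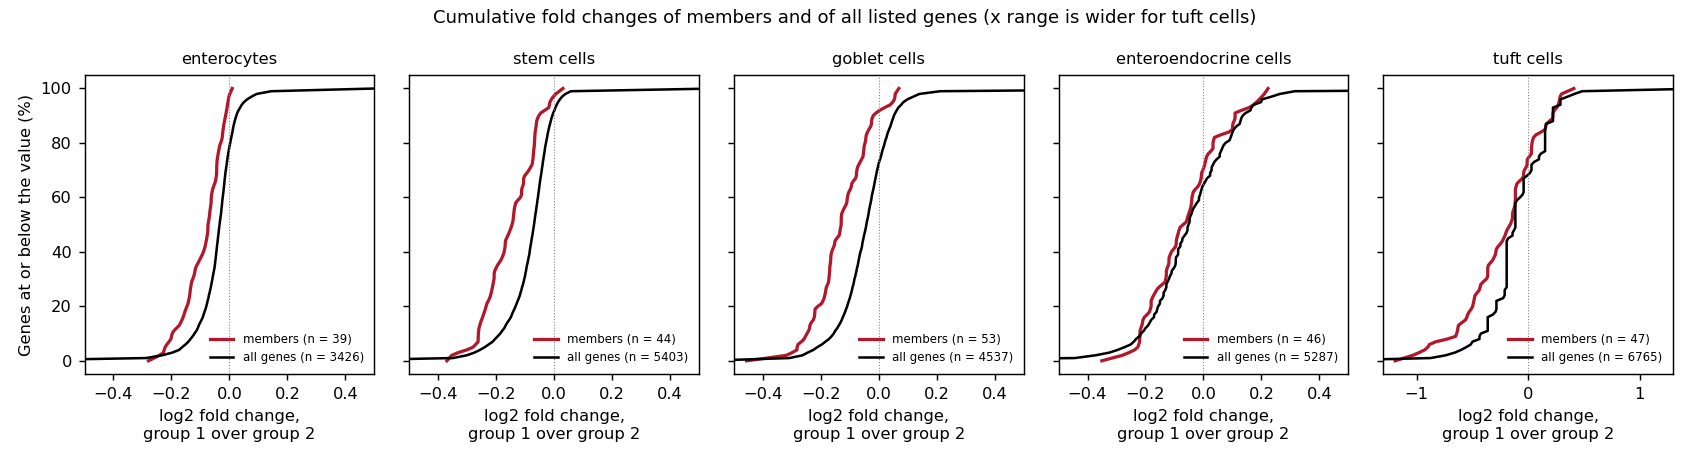
Cumulative share of genes (percent) by log2 fold change, group 1 over group 2, for members (red) and all listed genes (black) in each cell type. The red curve lies left of the black one in enterocytes, stem cells and goblet cells (member medians -0.07, -0.15 and -0.13) and close to it in enteroendocrine cells. In tuft cells the lower quartile is -0.46 for members and -0.21 for all genes.

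The low values sat with members that mark a cluster. Of the members that mark cluster 4, 27 of 29 were below the median of all genes in goblet cells, 26 of 28 in stem cells and 24 of 26 in enterocytes. The whole marker list of cluster 4 lay low too, with 77.7%, 79.5% and 80.7% of its genes below the median in the same cell types. So did that of cluster 2, with 75.4%, 86.9% and 89.3% below, and its members were below in 11 of 11, 10 of 11 and 11 of 11 cases. Among members that mark no cluster, 14 of 21 were below it in goblet cells, 6 of 13 in stem cells and 3 of 10 in enterocytes, beside 45.0%, 42.8% and 39.9% of all such genes. Members that mark no cluster were also detected less often (median 19.0%, beside 59.7% for members of cluster 4, in goblet cells). Goblet markers were also lower in group 1 enterocytes and stem cells. The summed detection of the 7 listed markers was 308.6 percentage points in group 1 and 373.8 in group 2 enterocytes, and 306.4 and 384.3 in stem cells, with 6 of the 7 below the median in each. In goblet cells the sum over all 10 was 824.2 and 832.8 percentage points, with 4 of 10 below. In enteroendocrine cells it was 329.5 and 337.5 over 7 listed markers, with 3 of 7 below and a list median of 0.03. In tuft cells it was 261.2 and 328.5 over 9 listed markers, with 5 of 9 below. The part of goblet RNA in the values of the other cell types was not tested. None of 7 plasma and B cell markers, 6 T cell, 5 myeloid or 4 fibroblast markers was listed in any sheet.

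**Figure D4:**
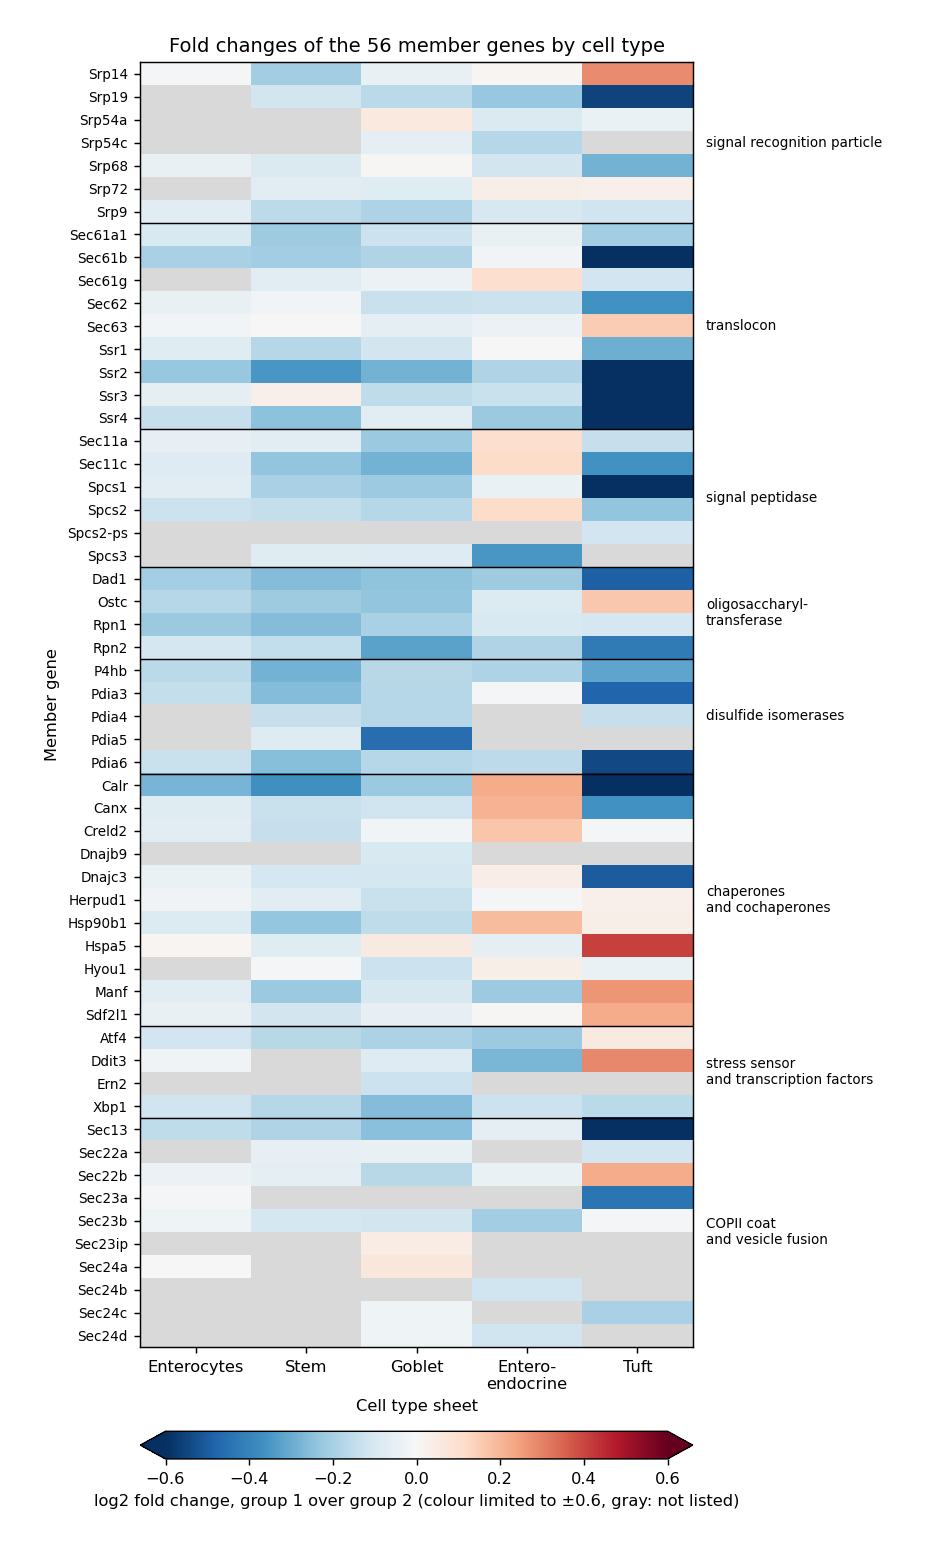
Log2 fold change, group 1 over group 2, of the 56 members (rows, by role) in the 5 cell type sheets (columns), blue for lower and red for higher in group 1, gray where not listed. Colours stop at 0.6, and tuft or enteroendocrine genes listed at 0 in a group are drawn at the deposited value. Ssr2 is blue in all 5 columns, from -0.18 in enteroendocrine cells to -0.91 in tuft cells, and Pdia5 is darkest in goblet cells (-0.46).

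The signal recognition particle, which brings ribosomes to the endoplasmic reticulum, had a median of -0.05 over 7 members in goblet cells, beside -0.04 for all genes, with 5 of 7 below. In stem cells it had -0.11 over 5 members, beside -0.07, with 4 of 5 below. In enteroendocrine cells it had -0.09 over 7 members, beside -0.05, with 5 of 7 below. None of its members passed 0.25 in these cell types. Srp9, of the domain that slows elongation, was found in 44.6% of group 1 and 52.7% of group 2 goblet cells, at -0.18 in the authors' deposited table. Srp19, an assembly factor of the particle, was at -0.16 in goblet cells (21.5% in group 1 and 32.7% in group 2) and at -0.23 in enteroendocrine cells (5.9% and 22.5%) in the authors' deposited table. Srp14, the partner of Srp9, was at -0.21 in stem cells, with 21.5% of group 1 and 32.4% of group 2, and at 0.28 in tuft cells, with 33.3% and 14.3%, in the authors' deposited table. Srp54a and Srp54c are near-identical copies of the signal-binding subunit whose reads may be split between them, so their values are uncertain.

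The Sec61 channel and its partners were lower in group 1 most evenly at Ssr2, a subunit of the translocon-associated protein complex. Ssr2 (chromosome 3, 88579608 to 88588420) was found in 72.8% of group 1 and 76.5% of group 2 goblet cells at -0.28, in the authors' deposited table. In stem cells it was in 69.6% and 80.4% at -0.35, and in enterocytes in 35.4% and 40.4% at -0.23, in the authors' deposited table. Tuft cells had Ssr2 in 27.8% of group 1 and 57.1% of group 2 at -0.91, in the authors' deposited table. Ssr2 was thus among the 4 lowest often-detected members in each of these 4 cell types. Sec61b, the small beta subunit of the channel, was at -0.18 in goblet cells (74.4% and 75.5%), -0.21 in stem cells (70.3% and 78.6%) and -0.20 in enterocytes (36.5% and 41.8%) in the authors' deposited table. Stem cells had other subunits on the same side, with Ssr4 at -0.25 (71.0% and 78.0%), Sec61a1, the channel's core, at -0.22 (31.3% and 44.4%) and Ssr1 at -0.17 (26.8% and 36.9%) in the authors' deposited table. At the other end, Ssr3 was at 0.03 in stem cells (31.5% of group 1 and 30.5% of group 2) and Sec62, which helps small precursors enter, at -0.02 (32.9% and 31.4%), the 2 highest often-detected members there in the authors' deposited table. In goblet cells Ssr3 was at -0.15 (33.3% and 41.5%) in the authors' deposited table. Over the 9 translocon members, 8 were below the median of all genes in goblet cells, 7 in tuft cells, 5 in stem cells, 4 in enteroendocrine cells, and 7 of 8 in enterocytes.

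Signal peptidase, which removes the signal sequence, was lower in goblet cells for all 5 listed members relative to the median of all genes, with a median of -0.22. Sec11c, 1 of its catalytic subunits, was found in 63.1% of group 1 and 67.0% of group 2 at -0.28, and the other, Sec11a, in 23.6% and 35.0% at -0.22, in the authors' deposited table. Spcs1, an accessory subunit, was in 41.5% of group 1 and 51.7% of group 2 goblet cells at -0.22 in the authors' deposited table. The order differed in enteroendocrine cells, where the authors' deposited table put Sec11c at 0.11 (23.5% of group 1 and 20% of group 2) and Sec11a at 0.10 (17.6% and 10.0%). There 1 of 5 members was below the median. In tuft cells Spcs1 was listed at 0 in group 1 and in 57.1% of group 2, and in enteroendocrine cells Spcs3 was listed at 0 in group 1 and in 20% of group 2, in the authors' deposited table. Spcs2-ps, listed in tuft cells alone, is a pseudogene copy of Spcs2 and may take some of its reads.

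The oligosaccharyltransferase, which attaches N-glycans, had all 4 members below the median of all genes in goblet cells, stem cells, enterocytes and enteroendocrine cells, and 2 of 4 in tuft cells. Its medians were -0.24 in goblet cells, -0.24 in stem cells and -0.19 in enterocytes. Rpn2 was found in 45.6% of group 1 and 54.8% of group 2 goblet cells at -0.32, the second lowest often-detected member there in the authors' deposited table. Rpn1 was in 20.8% of group 1 and 30.2% of group 2 enterocytes at -0.22, in the authors' deposited table. Dad1, a small subunit, was at -0.20 in enterocytes (36.9% and 41.8%), -0.26 in stem cells (71.7% and 79.6%) and -0.24 in goblet cells (70.8% and 72.1%) in the authors' deposited table. Ostc, which joins the enzyme to the translocon, was at -0.24 in goblet cells (57.4% and 66.7%) in the authors' deposited table.

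Among disulfide isomerases, Pdia5 in goblet cells held the lowest value of any member in goblet cells, stem cells, enterocytes or enteroendocrine cells. It was found in 45.1% of group 1 and 63.9% of group 2 goblet cells, at -0.46 in the authors' deposited table, the fifth lowest of 4537 genes in that sheet. In stem cells Pdia5 was in 12% of group 1 and 16.1% of group 2 at -0.08, in the authors' deposited table, and it was not listed elsewhere. The others of the family lay together in goblet cells at -0.17 each: P4hb (87.7% and 87.4%), Pdia3 (71.8% and 74.8%), Pdia6 (67.2% and 69.7%) and Pdia4 (28.7% and 38.1%), in the authors' deposited table. All 5 were below the median of all genes in goblet and in stem cells. In stem cells P4hb, the founding isomerase, was in 72.6% of group 1 and 80.2% of group 2 at -0.28, and Pdia3, which serves glycoproteins, in 51.0% and 64.2% at -0.26, in the authors' deposited table. For P4hb in goblet cells the shares were level although the fold change was negative.

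**Figure D5:**
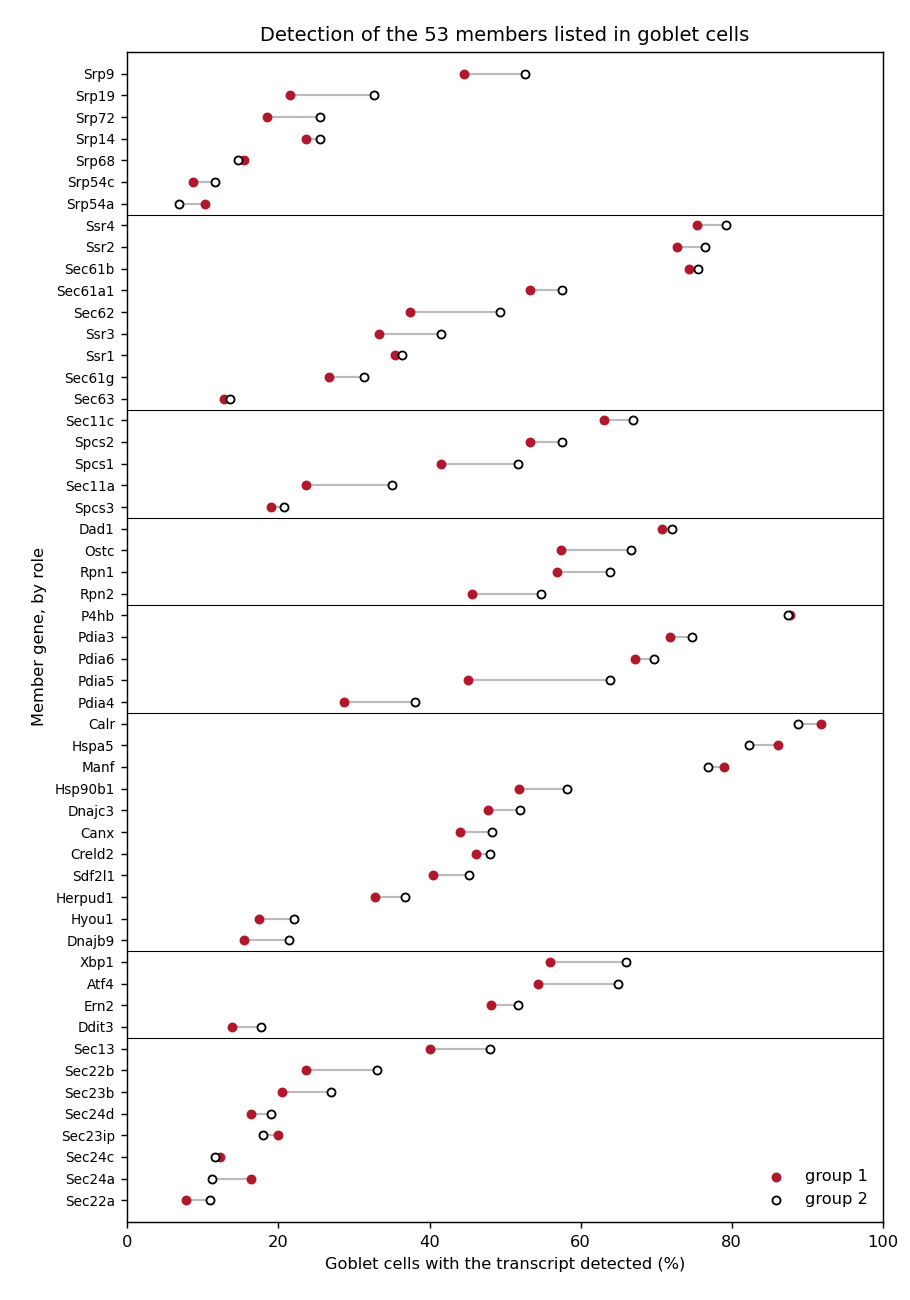
Share of goblet cells (percent) with each of the 53 listed members detected in group 1 (filled) and group 2 (open), grouped by role from the signal recognition particle at the top to COPII at the bottom. Pdia5 has the widest gap (45.1% and 63.9%), and 44 of the 53 members have the filled point on the left.

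Among the chaperones Hspa5 and Calr stood at opposite ends in goblet cells, enterocytes and tuft cells. Hspa5 (BiP, chromosome 2, 34772090 to 34776529), the main Hsp70 of the compartment and a widely used readout of folding stress, was found in 86.2% of group 1 and 82.3% of group 2 goblet cells, at 0.05 in the authors' deposited table. It was the highest often-detected member there, and also in enterocytes (62.0% and 58.5%, 0.01) and in tuft cells (66.7% and 57.1%, 0.41), in the authors' deposited table. In stem cells (75.7% and 75.2%) it was at -0.07 and in enteroendocrine cells (50.0% and 50.0%) at -0.05, in the authors' deposited table, beside sheet medians of -0.07 and -0.05. Hspa5 was thus above the median of all genes in goblet cells, enterocytes and tuft cells, and level with it to the second decimal in the others.

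Calr (calreticulin, chromosome 8, 84842088 to 84846931), which holds newly glycosylated proteins and stores calcium, was the lowest often-detected member in enterocytes and in stem cells. The authors' deposited table had it in 73.2% of group 1 and 75.8% of group 2 enterocytes at -0.28, and in 84.1% and 91.9% of stem cells at -0.37. In goblet cells it was in 91.8% of group 1 and 88.8% of group 2 at -0.22 in the authors' deposited table, so more cells of group 1 had the transcript although its mean was lower. Hsp90b1, the Hsp90 of the compartment, was at -0.15 in goblet cells (51.8% and 58.2%), -0.23 in stem cells (52.8% and 60.3%) and -0.08 in enterocytes (33.9% and 36.8%) in the authors' deposited table.

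Enteroendocrine cells had Calr, Canx, Hsp90b1 and Creld2 higher in group 1, in a sheet where 5 of 8 enteroendocrine markers differed by far more. The authors' deposited table had Pyy at 1.62 and Sct at 1.19, but Tph1 at -1.27, Chga at -1.22 and Chgb at -1.21. The part of the mix of enteroendocrine cells in the chaperone values was not tested. Calr was in 79.4% of group 1 and 75% of group 2 at 0.22, in the authors' deposited table, and Canx, its membrane-bound relative, in 41.2% and 25% at 0.21. Hsp90b1 was in 52.9% of group 1 and 40.0% of group 2 at 0.19, and Creld2, a stress-induced partner of isomerases, in 20.6% and 7.5% at 0.17, in the authors' deposited table. They were the 4 highest often-detected members of that sheet, and 2 of the 10 listed chaperones were below the median of all genes, at a chaperone median of 0.04. In tuft cells Calr was in 50.0% of group 1 and 85.7% of group 2 at -0.63, and Manf in 50.0% and 42.9% at 0.27, in the authors' deposited table. The chaperone counts below the median of all genes were 9 of 11 in goblet cells, 8 of 10 in stem cells, 7 of 9 in enterocytes and 3 of 10 in tuft cells.

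Of the stress sensor and its transcription factors, Xbp1 and Atf4 were lower in group 1 than the median of all genes in goblet cells, stem cells, enterocytes and enteroendocrine cells. Xbp1 (chromosome 11, 5520641 to 5525993), whose messenger is spliced by IRE1, was found in 55.9% of group 1 and 66.0% of group 2 goblet cells at -0.26, in the authors' deposited table. It was at -0.17 in stem cells (38.5% and 47.9%), -0.12 in enterocytes (27.5% and 32.0%), -0.13 in enteroendocrine cells (29.4% and 42.5%) and -0.16 in tuft cells (22.2% and 28.6%) in the authors' deposited table. The counts do not separate spliced from unspliced Xbp1. Atf4, made when PERK slows translation, was at -0.19 in goblet cells (54.4% and 65.0%), -0.17 in stem cells (41.7% and 49.1%), -0.12 in enterocytes (29.5% and 33.9%), -0.22 in enteroendocrine cells (32.4% and 37.5%) and 0.05 in tuft cells (22.2% and 28.6%) in the authors' deposited table. Ern2 was in 48.2% of group 1 and 51.7% of group 2 goblet cells at -0.13, in the authors' deposited table, and in no other sheet. Ddit3 (CHOP), which promotes death under lasting stress, was found in 13.8% of group 1 and 17.7% of group 2 goblet cells at -0.08, 10.6% and 11.5% of enterocytes at -0.02, and 11.8% and 27.5% of enteroendocrine cells at -0.27, in the authors' deposited table. Ddit3 in tuft cells was in 22.2% of group 1 and listed at 0 in group 2 of the authors' deposited table, and the stem cell sheet did not list it.

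COPII genes were mixed. Of the 8 listed in goblet cells 4 were below the median of all genes, and their median was -0.03, beside -0.04. In enteroendocrine cells 4 of 5 were below it, with a median of -0.12, beside -0.05. Sec13, of the outer coat and also of the nuclear pore, was found in 40.0% of group 1 and 48.0% of group 2 goblet cells at -0.25, in the authors' deposited table. It was at -0.18 in stem cells (54.6% and 59.7%) and -0.15 in enterocytes (23.0% and 28.5%) in the authors' deposited table. Sec22b, a fusion protein of the vesicles, was at -0.17 in goblet cells (23.6% and 33.0%) and Sec23b, of the inner coat, at -0.11 (20.5% and 26.9%) in the authors' deposited table. The inner coat's cargo adaptors were nearly level, with Sec24a at 0.07 (16.4% of group 1 and 11.2% of group 2) and Sec24d at -0.03 (16.4% and 19.0%) in goblet cells in the authors' deposited table. Sec23ip, a partner of Sec23, was at 0.04 there (20% and 18%) in the authors' deposited table. Sec13 in tuft cells was in 5.6% of group 1 and 28.6% of group 2 at -1.02, in the authors' deposited table.

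Other genes of the pathway, taken from 8 lists that hold none of the members, showed a like small shift in goblet cells with 2 exceptions. Below the median of all genes in goblet cells were 12 of 15 COPI and retrieval genes (median -0.17), 14 of 18 other chaperones and oxidoreductases (-0.10), 15 of 19 glycosylation genes (-0.08), 11 of 15 other targeting and translocation genes (-0.10), 18 of 27 other COPII and cargo receptor genes (-0.08) and 13 of 21 degradation genes (-0.07), where all genes had a median of -0.04. The exceptions were other sensors and effectors of the unfolded protein response (2 of 6, -0.02) and targets of ATF4 and CHOP (3 of 6, -0.03). The other lists leaned low in enterocytes and stem cells too. In that order enterocytes had 11 of 14, 8 of 9, 9 of 12, 11 of 13, 17 of 24 and 9 of 13 below. Stem cells had 8 of 14, 11 of 16, 12 of 18, 13 of 17, 19 of 27 and 11 of 17. Tuft cells had 7 of 14, 8 of 16, 7 of 18, 8 of 18, 14 of 27 and 5 of 14. The exceptions had 0 of 1 and 1 of 3 in enterocytes, and 1 of 4 and 5 of 6 in stem cells. No list was set against detection classes. Kdelr1, which returns escaped chaperones, was in 45.6% of group 1 and 57.5% of group 2 goblet cells at -0.27, in the authors' deposited table. Ddost, another oligosaccharyltransferase subunit, was in 52.8% and 59.5% at -0.32 there, and Agr2, the isomerase that mucin folding needs, in 98.5% and 98.0% at -0.39, in the authors' deposited table. Agr2 is also a goblet marker in the list above. Creb3l1, a membrane-bound transcription factor of secretory cells, was in 35.9% and 43.9% at -0.19 in goblet cells in the authors' deposited table.

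In enteroendocrine cells the other chaperones and oxidoreductases stood with Calr and Canx. Of 16 listed, 3 were below the median of all genes, and the list's median was 0.05. Ppib, a proline isomerase, was in 41.2% of group 1 and 22.5% of group 2 at 0.32, and Txndc5 in 26.5% and 7.5% at 0.33, in the authors' deposited table. The authors' deposited table had Agr2 on the other side at -0.97, in 47.1% of group 1 and 45.0% of group 2. All 7 enterocyte markers listed in that sheet were below its median, with a summed detection of 435.4 percentage points in group 1 and 502.5 in group 2, and the part of such RNA in these values was not tested. Of the lists in enteroendocrine cells, targets of ATF4 and CHOP were below the median of all genes in 6 of 6 (median -0.12), and other COPII and cargo receptor genes in 19 of 26 (-0.10). Below it too were COPI genes in 9 of 15 (-0.12), degradation genes in 9 of 14 (-0.11) and glycosylation genes in 10 of 15 (-0.07). Other sensors were below in 4 of 7 (-0.07). These shares were like that of degradation genes in goblet cells (13 of 21, -0.07). Other targeting and translocation genes of enteroendocrine cells were below in 6 of 15 (-0.03). All genes of the enteroendocrine sheet had a median of -0.05.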

How the data were processed

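Cells of 1 pooled sample per genotype were sequenced, and DESeq2 1.30.1, Seurat, Cell Ranger and the build mm10 are named, without roles, in the submitters' processing notes. How cells were filtered, doublets treated and types assigned is not stated in those notes. The authors deposited, per the file headers, log2 fold changes between 2 groups of cells of each type, and the fraction of cells of either group with the gene detected. These fractions are given here as percentages. The deposited p-values were computed over cells, which are not replicates, and are not used. The log2 values carry an offset of unstated size. Cell numbers and depth per cell type are not stated, so no intervals over cells are given.

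Members and lists were chosen with earlier results of these data known. Counts, medians and ranks were computed with Python 3.11.15, numpy 2.4.6 and pandas 2.3.3, and the code was tested on simulated data. A single sample per genotype allowed no test. Often detected means at or above the sheet's median of the mean detection share. Named are the 4 lowest and the 4 highest such members of a sheet, the genes Hspa5, Hsp90b1, Xbp1, Atf4, Ddit3 and Ern2, and up to 3 genes per other list. Further members illustrate their role and were chosen after their values were seen. Coordinates of all 56 members come from the RefSeq table of the same build. Sequences are not used here. Alternatives were another zero point, a detection floor, other folds, the mean, subsets of members and detection in place of fold change. Genes in the highest of 4 detection classes were added after the data were seen.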

Additional observations from a re-analysis of the deposited data

Results flagged for a closer look

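Several members stood on opposite sides of 0 in 2 cell types by at least 0.2 on the log2 scale, and these differences were not tested. Values of genes below the sheet's median detection, or listed at 0 in a group, were left out, which removes Ddit3 (22.2% of group 1 and 0 of group 2 in tuft cells in the authors' deposited table). In the authors' deposited table Calr was at 0.22 in enteroendocrine cells, but at -0.63 in tuft cells, -0.37 in stem cells, -0.28 in enterocytes and -0.22 in goblet cells. Canx was at 0.21 in enteroendocrine cells and -0.36 in tuft cells in the authors' deposited table. Manf was at 0.27 in tuft cells but at -0.22 in both stem and enteroendocrine cells in the authors' deposited table. Srp14 was at -0.21 in stem cells and 0.28 in tuft cells in the authors' deposited table. Each of these contrasts involves enteroendocrine or tuft cells, the sheets with the fewest distinct detection shares.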

How the results depend on the processing

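No paired analysis was possible because each genotype is 1 pooled sample. The share of members below the reference was 92% in enterocytes with a floor on detection and 92.3% in the highest of 4 detection classes, an alternative chosen after the data were seen, where 76.9% was reported. With 0 as the reference it was 97.4% (enterocytes), 95.5% (stem cells), 74.5% (tuft cells) and 69.6% (enteroendocrine cells). With well-detected genes as the reference it was 53.8%, 34.1%, 62.3%, 76.1% and 36.2% in enterocytes, stem, goblet, enteroendocrine and tuft cells. Without members that mark a cluster it was 30%, 46.2%, 66.7% and 35.3% in enterocytes, stem, goblet and tuft cells. By detection it was 67.9% in goblet cells, and for members named one by one 37.5% in tuft cells. Without members that mark a cluster, the members' median minus that of all genes turned to 0.0119 in enterocytes and 0.001 in stem cells, and was -0.0116 in goblet cells. For members named one by one it turned to 0.022 in enteroendocrine and 0.125 in tuft cells. The cause of these changes was not tested. Members lower by at least 0.1 numbered 15 of 39 in enterocytes, 30 of 44 in stem, 33 of 53 in goblet and 19 of 46 in enteroendocrine cells. Of all genes about 14%, 31%, 23% and 34% were that low in these sheets. Lower by 0.5 were 0 in each of those (under 1% of all genes) and 10 of 47 in tuft cells (about 7% of all genes). Measured from the median of all genes, 0, 2, 2 and 1 were lower by 0.25 in enterocytes, stem, goblet and enteroendocrine cells. Of all genes between 1% and 2% were in enterocytes, stem and goblet cells, and between 3% and 4% in enteroendocrine cells. With the detection floor, 1 enteroendocrine member was lower by 0.25, beside 7.42% and 15.2% of all genes in the 2 highest detection classes. Higher by 0.1 were 8 in enteroendocrine and 8 in tuft cells, where about 83% and 75% of all genes lay under 0.1. Higher by 0.5 were 0 in tuft cells, where over 99% of all genes lay under 0.5. Measured from the median, 2 and 8 were higher by 0.25 in these 2, where about 94% and 76% of all genes lay under that. The other 76 of 117 alternatives kept a count within 1.5 times, or a share or median within a binomial interval over members. Members are not replicates, so this bounds no spread between animals.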
